A study of Mus musculus with 8 samples.

Results

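The 40 cell cycle and replication genes described here were taken as a named list and looked up in single-cell RNA count tables of mouse macrophages exposed to CYR61. They form 40 of the 32249 genes listed over the tables. Of them, 39 were listed in every table, and Stmn1 was not listed for 1 control library. By role there were 13 replication genes, 19 mitotic genes, 6 cyclins and 2 others. Marrow cells of 10-week-old C57Bl/6J mice, all labelled male, were grown in M-CSF for 3 days. They were then left for 24 h without (control) or with 4 µg/mL of CYR61, a secreted matricellular protein encoded by Ccn1. Each condition had 4 libraries made on HIVE, a microwell array in which the RNA of single cells is captured and each molecule is tagged, so that a count is a unique molecular identifier (UMI). Every library, controls included, thus came from M-CSF cultures. Whether the replicates came from separate animals or cultures is not stated in the labels, so the p-values measure the spread between libraries, which may be technical.

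A dividing cell copies its DNA once and then separates the copies. The MCM proteins are loaded on DNA before replication and unwind it, PCNA clamps the polymerases to it, and ribonucleotide reductase, thymidylate synthase and thymidine kinase supply nucleotides. Genes for these proteins are switched on by E2F factors as a cell commits to division. Later, the mitotic genes encode the spindle motors, kinetochore proteins and condensins, and many are held down in resting cells by the DREAM complex and switched on by MYB and FOXM1 factors through a sequence known as the cell cycle genes homology region (CHR). Cyclins are the regulatory subunits of the kinases that drive these steps, and cyclin D1 (Ccnd1) is a known target of growth factor signalling. M-CSF is the factor that drives macrophage precursors to divide and to survive, and division falls as they mature.

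Promoters of these genes carry the letters of both systems, and 5 are shown because they differ between the roles. RefSeq windows on GRCm38.p6, from 250 bases before to 50 after a gene's start, were matched for 32 of the 40 members. Mcm4, Ccna2, Ccnd1, Ccnd2, Ccne2, Stmn1, Smc4 and Tpx2 were not matched. Motifs were searched on both strands. The CHR was searched as TTTGAA, the CCAAT box, bound by NF-Y, as CCAAT, and the E2F site in 4 spellings, first TTCCCGC, then TTGGCGC, then TTGCCGC and lastly TTCGCGC. E2F matches can overlap each other, as in Mcm6, and can share bases with a CCAAT match (ATTGG on the other strand with TTGGCGC). The 200 bases before each start are given 5′ to 3′ on the gene's strand, with every motif match in capitals. The windows are chr9:70421555-70421754 (minus strand) for Ccnb2, chr10:69352913-69353112 (minus strand) for Cdk1 and chr11:99024190-99024389 (minus strand) for Top2a. Those of the replication genes are chr1:128359706-128359905 (minus strand) for Mcm6 and chr8:75109309-75109508 (plus strand) for Mcm5.
Ccnb2: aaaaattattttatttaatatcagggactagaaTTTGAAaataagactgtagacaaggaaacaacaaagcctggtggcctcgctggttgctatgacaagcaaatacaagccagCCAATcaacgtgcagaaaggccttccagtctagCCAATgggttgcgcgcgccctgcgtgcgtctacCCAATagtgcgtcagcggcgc
Cdk1: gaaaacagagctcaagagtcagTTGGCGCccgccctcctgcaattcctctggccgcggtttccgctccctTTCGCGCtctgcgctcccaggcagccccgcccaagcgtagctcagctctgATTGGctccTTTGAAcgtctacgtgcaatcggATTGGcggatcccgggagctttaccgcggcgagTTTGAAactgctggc
Top2a: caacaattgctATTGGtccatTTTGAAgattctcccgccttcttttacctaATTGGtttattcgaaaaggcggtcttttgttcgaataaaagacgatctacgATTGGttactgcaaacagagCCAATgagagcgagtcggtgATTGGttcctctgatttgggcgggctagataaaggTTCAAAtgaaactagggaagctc
Mcm6: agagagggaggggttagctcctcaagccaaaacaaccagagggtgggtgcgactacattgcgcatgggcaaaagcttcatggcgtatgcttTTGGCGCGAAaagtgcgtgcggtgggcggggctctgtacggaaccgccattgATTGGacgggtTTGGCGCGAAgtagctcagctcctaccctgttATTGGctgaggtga
Mcm5: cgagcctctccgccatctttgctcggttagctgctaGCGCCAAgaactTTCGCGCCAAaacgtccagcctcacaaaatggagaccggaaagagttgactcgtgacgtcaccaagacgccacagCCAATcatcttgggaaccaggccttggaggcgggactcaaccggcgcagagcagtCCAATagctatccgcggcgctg

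The CHR letters stood in the window of 13 of 17 mitotic genes (76.5%) and of 1 of 12 replication genes (8.33%, Mcm2), against 20.2% of all 27025 genes of the table. The E2F letters stood in 8 of 12 replication genes (66.7%) and in 2 of 17 mitotic genes (11.8%, Mki67 and Cdk1), against 10.9% of all genes. The CCAAT letters did not separate the roles, with 9 of 12 replication genes (75.0%) and 13 of 17 mitotic genes (76.5%), against 41.1% of all genes. Of the cyclins 2 were matched, and Ccnb2 held the CHR letters and Ccnb1 the E2F letters. The Top2a window, for the topoisomerase that untangles copied DNA, and the Ccnb2 window, for a cyclin of mitosis, hold CHR and CCAAT letters and no E2F letters. In the Cdk1 window, for the kinase that starts mitosis, all 3 motifs are in capitals. The windows of Mcm5 and Mcm6, subunits of the helicase, hold E2F and CCAAT letters and no CHR letters. These are matches of letters in a window, with no measurement of binding.

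A barcode counted as a cell when it had 300 or more genes and mitochondrial transcripts made up no more than 20% of its UMIs. Each cell was kept only in the table of its date stamp where it had most UMIs, because kept barcodes were shared 5153 times between tables of a date and 67 times between dates. This left 9196 of the 12848 kept cells, of 40000 listed barcodes, with 0 barcodes shared within a date and 13 between dates. The cells numbered 294 to 1058 per control library and 499 to 3604 per CYR61 library, with 842528 to 13933610 UMIs per library and a median of 789 to 1595 UMIs per cell. Of the UMIs of kept cells, 76.1% in control replicate 2 belonged to barcodes assigned to another library, against 0.891% to 27.4% in the other libraries. Against the label male, 4 libraries (control replicates 2 and 3, CYR61 replicates 1 and 2) held Xist RNA at 1152 to 1249 CPM (UMI counts scaled to an equal library total) and are called Xist libraries. The other 4 (control replicates 1 and 4, CYR61 replicates 3 and 4) held Y-linked RNA at 323 to 399 CPM and Xist at no more than 1.16 CPM, and are called Y libraries. The earlier date stamp covers replicates 1 and 2 of both groups, so both earlier CYR61 libraries were Xist libraries and both later ones Y libraries. Macrophage markers were present in every library (summed level 8015 to 12477 CPM in control and 10247 to 14955 CPM in CYR61 libraries, 6 of 6 genes measured).

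Counts of the cells were summed per library, and CPM below are of these sums. Of the 40 members, 39 passed the filter on low counts and entered the test of CYR61 against control, and Stmn1 did not. With CYR61 none of the 39 passed the test (edgeR quasi-likelihood test, adjusted p under 0.05 over 10422 genes), where 1.16% of all genes passed. One member, Pcna, had an unadjusted edgeR p under 0.05, as did 646 of all 10422 genes. DESeq2 called 0 members and had 1 at an unadjusted p under 0.05, beside 762 of all 10422 genes. In no member did the 4 control and 4 CYR61 libraries fall apart without overlap, which 5.12% of all tested genes did. DESeq2 called 1.76% of all genes. The median log2 fold change of the members was -0.18 (13 above and 26 below 0), against -0.02 over all genes. By role the median was -0.27 in replication genes, -0.05 in mitotic genes and -0.24 in cyclins. In simulated counts with these library sizes the test found 26.37% of genes changed by 1 log2 unit and 80.65% of those changed by 2. The changed genes were drawn at random from all that passed the filter, so these rates were not measured for the members. A change of 1 unit or less in a member would often be missed. A larger change could be missed too in a member that varied widely between libraries.

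Among the replication genes, Pcna, the sliding clamp (chromosome 2, 132249162 to 132253314, minus strand), had the smallest p. Its level was 242, 284, 331 and 315 CPM in control replicates 1 to 4 and 247, 251, 189 and 173 CPM in CYR61 replicates 1 to 4. The means were 293 ± 39.1 and 215 ± 39.8 CPM (SD, n = 4 each), and the groups overlapped through control replicate 1 and CYR61 replicates 1 and 2. The log2 fold change was -0.42 (SE 0.19, edgeR adjusted p = 0.806). Mcm6, a helicase subunit (chromosome 1, 128331590 to 128359664, minus strand), had 22.7, 84.9, 40.4 and 27.9 CPM in control and 71.4, 85.1, 16.5 and 21.7 CPM in CYR61 replicates 1 to 4. Both groups thus held high and low libraries (log2 fold change 0.26, SE 0.52). Rrm1, the large subunit of ribonucleotide reductase, had 38.4, 100, 47.5 and 28.9 CPM in control and 73.2, 92.0, 31.3 and 24.3 CPM in CYR61 replicates. Tk1, thymidine kinase, had 5.24, 40.8, 15.4 and 7.98 CPM in control and 16.4, 16.4, 0 and 3.21 CPM in CYR61 replicates. For both, control replicate 2 and CYR61 replicates 1 and 2 were the 3 highest libraries, and the groups overlapped (log2 fold change 0.13, SE 0.45, and -0.74, SE 0.82). The other replication genes lay between -0.55 (Mcm5) and 0.18 (Mcm2).

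Among the mitotic genes, Top2a (chromosome 11, 98992943 to 99024189, minus strand) had 85.6, 294, 98.5 and 99.7 CPM in control and 215, 231, 13.1 and 65.8 CPM in CYR61 replicates 1 to 4. Mki67, the coat protein of mitotic chromosomes detected as Ki-67 (chromosome 7, 135689784 to 135716361, minus strand), had 136, 394, 103 and 102 CPM in control and 191, 231, 50.5 and 87.2 CPM in CYR61 replicates. In both genes control replicate 2 was the highest library, CYR61 replicates 1 and 2 came next and CYR61 replicate 3 was the lowest. The log2 fold change with CYR61 was -0.05 (SE 0.62) for Top2a and -0.31 (SE 0.48) for Mki67. Cenpe, a kinetochore motor, followed the same library order at the top (43.6, 223, 49.9 and 79.8 CPM in control; 87.6, 108, 35.7 and 36.9 CPM in CYR61; log2 fold change -0.47, SE 0.50). Smc4, a condensin subunit (chromosome 3, 69004738 to 69034623, plus strand), behaved otherwise, with 221, 295, 145 and 244 CPM in control and 273, 282, 237 and 261 CPM in CYR61 replicates. The means were 226 ± 62.3 and 263 ± 19.7 CPM (SD, n = 4 each), and the log2 fold change was 0.26 (SE 0.19, edgeR adjusted p = 0.980). Fold changes of the remaining mitotic genes ran from -0.43 for Cdk1 to 0.59 for Nusap1, which bundles spindle microtubules, each within the spread between libraries.

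The cyclins stand for different steps. Ccnd1, for cyclin D1, which couples growth factor signals to the start of division (chromosome 7, 144929931 to 144939925, minus strand), had 98.1, 338, 417 and 95.7 CPM in control and 269, 303, 128 and 106 CPM in CYR61 replicates. Ccne2, for a cyclin of the entry into DNA replication (chromosome 4, 11191351 to 11204779, plus strand), had 5.82, 30.6, 84.3 and 6.98 CPM in control and 46.0, 51.6, 6.96 and 7.75 CPM in CYR61 replicates. Each group thus held a pair of high and a pair of low libraries for both genes, and the fold changes were near 0 (-0.18, SE 0.48, and -0.02, SE 0.83). Ccna2, for the cyclin of replication and early mitosis, had 14.0, 75.6, 11.9 and 23.9 CPM in control and 48.8, 60.7, 6.09 and 9.63 CPM in CYR61 replicates. Ccnb1, for a cyclin of mitosis, had the largest negative fold change of all members. Its levels were low, at 3.49, 20.4, 7.12 and 7.98 CPM in control and 6.82, 4.88, 0 and 1.87 CPM in CYR61 replicates (9.74 ± 7.35 and 3.39 ± 3.05 CPM, SD, n = 4 each). The log2 fold change of -1.27 (SE 0.76, edgeR adjusted p = 0.923) did not pass, and the groups overlapped. Ccnb2 had a log2 fold change of -0.30 (SE 0.83). Ccnd2, another D-type cyclin, stayed between 0.535 and 11.9 CPM in all libraries. Of the 2 other members, Hmgb2, a chromatin protein abundant in dividing cells, had 32.6, 78.1, 36.8 and 58.8 CPM in control and 43.2, 45.1, 79.2 and 42.8 CPM in CYR61 replicates, with overlapping groups. Stmn1, for the microtubule regulator stathmin, had 5.96 and 7.96 CPM in CYR61 replicates 2 and 1 and 5.94 CPM in control replicate 2. No other library exceeded 1.99 CPM.

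The levels of many of these genes followed the Xist and Y split, more fully in replication than in mitotic genes. Control replicate 3, an Xist library, lay among the Y libraries for Top2a, Mki67 and Ccna2. Its mitotic sum was 783 CPM, against 488 to 885 CPM in Y libraries. In 20 of 40 members all 4 Xist libraries lay above all 4 Y libraries, against 10.5% of all tested genes. They were 10 of 13 replication genes, 7 of 19 mitotic genes and 3 of 6 cyclins (Ccnd1, Ccnd2 and Ccne2). With the split as a second term beside CYR61, 27 of 39 members were higher in Xist libraries (edgeR adjusted p under 0.05), against 7.72% of all genes, and 0 were lower, against 7.61%. This term was examined after the data were seen. The median member was higher by 1.68 on the log2 scale. Cyclin D1 was 3.10-fold higher in the mean of the Xist libraries, at 269 to 417 CPM against 95.7 to 128 CPM (log2 difference 1.61, SE 0.17, edgeR adjusted p = 4.17e-05). Ccne2 stood at 30.6 to 84.3 CPM against 5.82 to 7.75 CPM (2.93, SE 0.35, edgeR adjusted p = 0.000123).

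**Figure D1:**
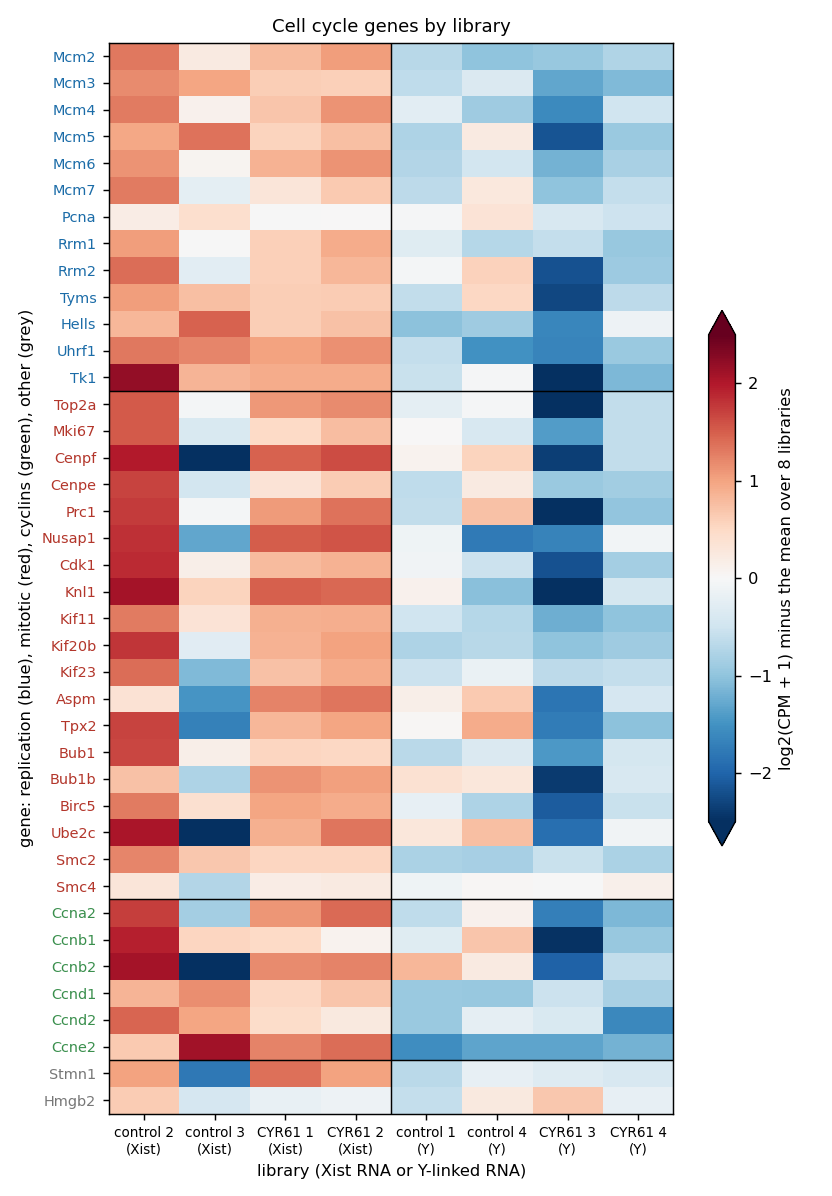
Level of each of the 40 genes (rows, grouped by role) in each of 8 libraries (columns), as log2(CPM + 1) minus the gene's mean over the libraries; red is higher and blue lower, and colours saturate at the ends of the scale. The 4 Xist libraries stand to the left of the vertical line and are mostly red. Control 3 is blue for several genes, among them Cenpf, Ccnb2, Ube2c, Tpx2 and Ccna2. Pcna, Smc4 and Hmgb2 show little of the pattern.

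Among the replication genes, 10 of 13 passed this term. Uhrf1, which keeps DNA methylation through replication, had 16.2 to 20.4 CPM in Xist and 1.74 to 4.66 CPM in Y libraries (log2 difference 2.48, SE 0.43, edgeR adjusted p = 0.00166). Mcm3 had 51.0 to 77.3 CPM against 13.1 to 25.9 CPM (1.74, SE 0.21, edgeR adjusted p = 0.000125). Pcna (0.30, SE 0.15, edgeR adjusted p = 0.191), Mcm7 and Tyms did not pass, and Pcna thus varied far less over the libraries than the helicase genes. Of the mitotic genes 13 of 19 passed. The condensin gene Smc2 had 143 to 230 CPM in Xist and 54.8 to 67.0 CPM in Y libraries (1.49, SE 0.17, edgeR adjusted p = 7.75e-05), while its partner in the complex, Smc4, had 145 to 295 CPM against 221 to 261 CPM (0.03, SE 0.17, edgeR adjusted p = 0.927). Kif11, the motor that pushes spindle poles apart, had 40.4 to 79.0 CPM against 13.1 to 22.1 CPM (1.78, SE 0.24, edgeR adjusted p = 0.000295). Cenpf, Aspm, Tpx2, Bub1b, Ube2c and Smc4 did not pass, with differences from 0.03 to 1.74. Of the cyclins Ccna2, Ccnd1, Ccnd2 and Ccne2 passed and Ccnb1 and Ccnb2 did not. Hmgb2 did not pass (-0.07, SE 0.29).

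**Figure D2:**
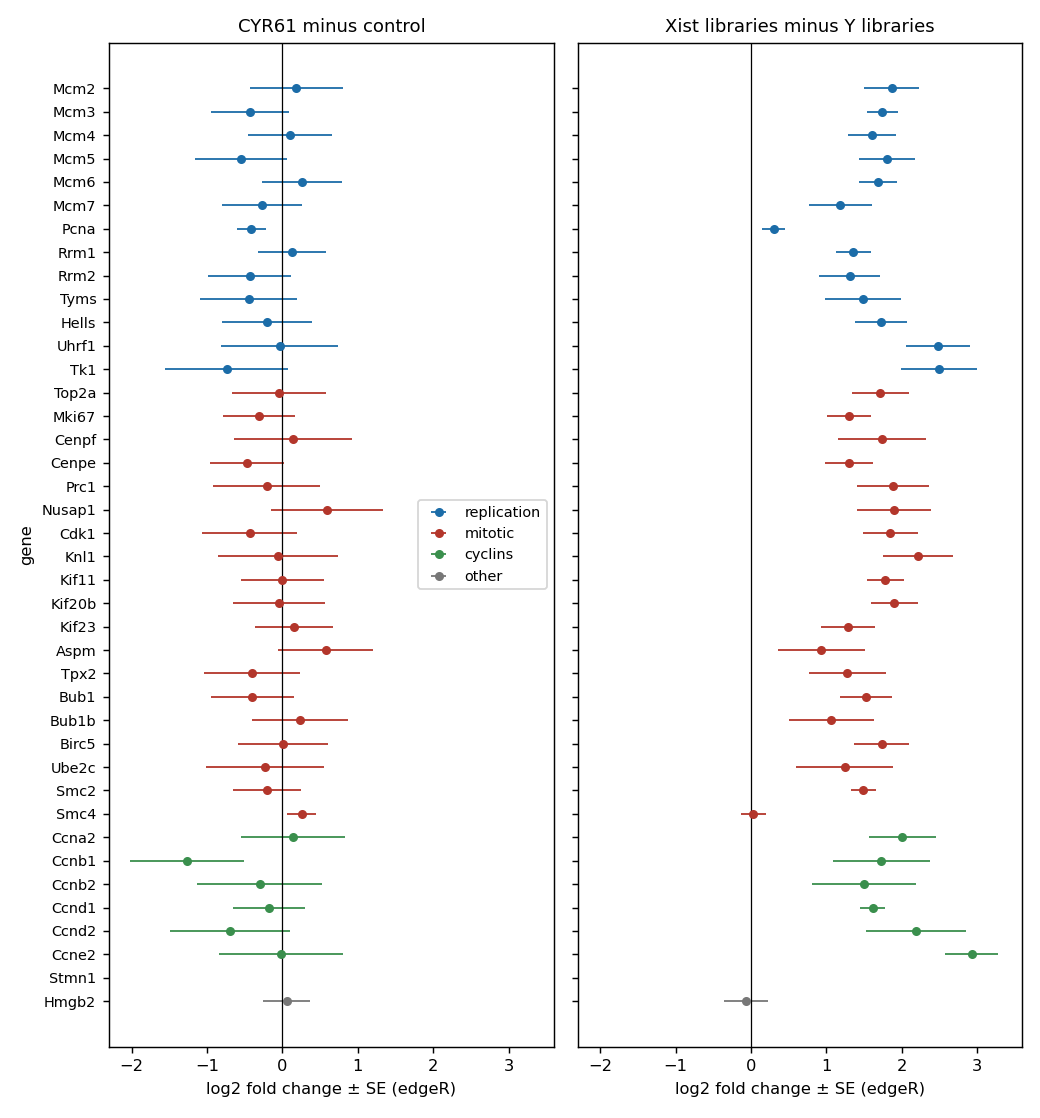
Log2 fold change with its SE (edgeR, horizontal axis) for each tested gene: CYR61 minus control at left, Xist minus Y libraries at right. With CYR61 the points run from -1.27 to 0.59 around 0; between Xist and Y libraries all points but that of Hmgb2 lie above 0, and Stmn1 has no point because it was not tested.

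The split is not balanced over the other differences between libraries, whose part in it was not tested beyond the following values. With the date stamp as a further term, 17 of 39 members passed the split term, beside 898 of 10422 genes in either direction. Before each barcode was kept in 1 table, sharing was concentrated in 3 of the 4 Xist libraries. Control replicate 2 shared 1504 kept barcodes with CYR61 replicate 1 and 1607 with CYR61 replicate 2, and those CYR61 libraries shared 1266. Other pairs of a date shared at most 211. Whether these Xist libraries are independent was not tested. With barcodes listed in 1 table of their date alone, 17 of 29 tested members passed, beside 600 genes. Without the cells that held at least 3 of 6 neutrophil granule genes, 26 of 36 tested members passed, beside 1463 genes. The median cell held 1027.5 to 1595 UMIs in Xist and 789 to 1144 UMIs in Y libraries. Cell type markers moved with the split too. The 6 macrophage genes summed to 8015 to 10684 CPM in Xist and 11230 to 14955 CPM in Y libraries, and the 4 megakaryocyte or platelet genes to 370 to 709 CPM against 756 to 1359 CPM, both without overlap. The 6 granule genes summed to 285, 337, 401 and 1283 CPM in Xist libraries, the last in control replicate 2, and to 942 to 2777 CPM in Y libraries. Leaving out 1 library at a time left 19 members (without control replicate 2) to 35 (without control replicate 3) past the test. Calls over all genes in these leave-out fits are not given here. Nor is the number of genes tested with barcodes of 1 table or without granule cells. These counts of members thus have no share over all genes beside them.

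The effect of CYR61 was also compared across the technical splits. With the split as a block, 0 of 39 members passed (2.22% of all genes did), and the median log2 fold change was -0.28, with 7 above and 32 below 0. Within the date stamps the medians differed in sign, at 0.40 for the earlier and -1.03 for the later one. Over all genes the medians were 0.003 and -0.018. At each date 0 members were called (39 tested at the earlier date, 28 at the later). The share of all genes called at each date is not given here, so these 0 calls have no share beside them. Because the earlier CYR61 libraries were Xist libraries and the later ones Y libraries, while each date had a control of each kind, date and split cannot be told apart here. The interaction of CYR61 and date called 0 members and 0% of all genes. Its smallest p among the members was that of Ccne2 (log2 difference -4.30, edgeR adjusted p = 0.396). The interaction of CYR61 and the Xist and Y split called 0 members, against 0.048% of all genes. Within the Xist libraries 0 members passed, against 3.06% of all genes, with 20 above and 20 below 0 and a median of 0.01.

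Within the Y libraries 1 of 36 tested members passed, against 1.85% of all genes, and 0.207% in the lower direction. It was Tpx2, a spindle assembly factor, with 29.4 and 55.8 CPM in control and 7.83 and 13.6 CPM in CYR61 replicates. Its log2 fold change was -1.85 (edgeR adjusted p = 0.0363). In the Xist libraries Tpx2 had 95.1 and 8.31 CPM in control and 52.3 and 57.9 CPM in CYR61 replicates. Top2a had a log2 fold change of -1.09 and Mki67 of -0.74 within the Y libraries, and neither passed. With a pair of libraries per group, 28 of the 36 members were below 0 and the median was -0.67, against -0.02 over all genes.

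Summed over the role, replication genes stood at 413, 873, 703 and 514 CPM in control replicates 1 to 4 and at 652, 724, 283 and 314 CPM in CYR61 replicates 1 to 4 (626 ± 204 and 493 ± 227 CPM, SD, n = 4 each). Mitotic genes stood at 792, 2402, 783 and 885 CPM in control and 1529, 1665, 488 and 690 CPM in CYR61 replicates (1216 ± 792 and 1093 ± 591 CPM). Without control replicate 2 the log2 ratio of mitotic sums between CYR61 and control went from -0.15 to 0.41. In bulk sums, fewer cells of a kind and less RNA per cell cannot be told apart. Cyclins summed to 392 to 528 CPM in the Xist libraries and to 129 to 146 CPM in the Y libraries. Cells with neutrophil granule genes gave much of the mitotic counts in some libraries and little in others. Without these cells mitotic counts fell from 2721 to 842 and from 2829 to 991 in control replicates 1 and 2. In CYR61 replicate 4 they fell from 2579 to 928, and in CYR61 replicate 2 from 23204 to 22699. Mitotic sums of the other cells were 565, 1959, 815 and 778 CPM in control and 1425, 1669, 528 and 399 CPM in CYR61 replicates.

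The balance of replication to mitotic RNA singled out 1 library. Replication UMIs per mitotic UMI were 0.521, 0.363, 0.897 and 0.581 in control and 0.426, 0.435, 0.579 and 0.455 in CYR61 replicates 1 to 4. In control replicate 3 the exact 95% interval was 0.801 to 1.004, which covers counting error only, and it lay above that of every other library. Without Pcna, Smc2 and Smc4, left out after their values were seen, the ratio was 0.775 there and 0.313 to 0.509 elsewhere. In that library Ccnb2 and Ube2c, a ubiquitin carrier of mitotic exit, had 0 counts of 842528 UMIs, which allows up to 3.56 CPM at a floor of 3 counts. Cenpf was 2.37 CPM. At the same time Ccnd1 and Ccne2 were at their highest of all libraries there (417 and 84.3 CPM). It held 294 cells, the fewest, and 9 cells with granule genes, also the fewest.

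**Figure D3:**
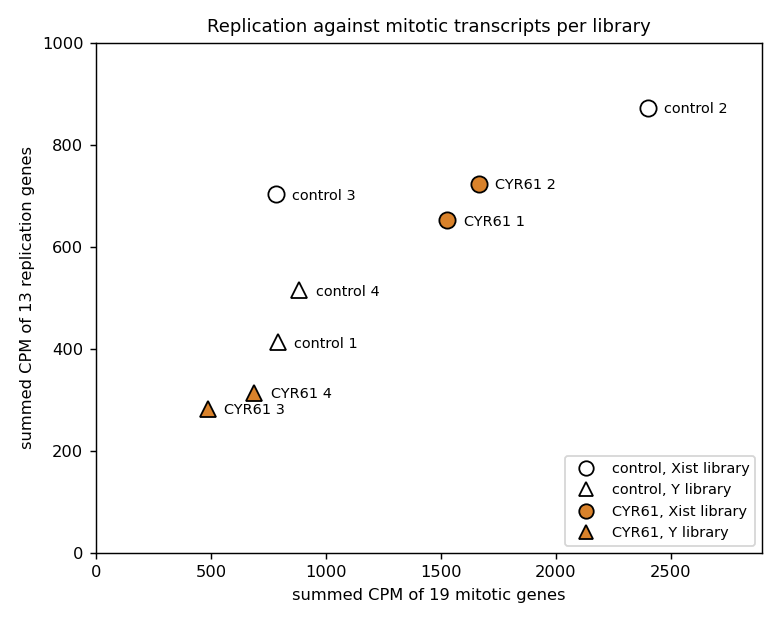
Summed CPM of the 13 replication genes (vertical axis) against that of the 19 mitotic genes (horizontal axis) in each library; circles are Xist and triangles Y libraries, white is control and orange CYR61. The 4 Xist libraries have the highest replication sums (652 to 873 CPM), and control 3 has a mitotic sum of 783 CPM, within the range of the Y libraries.

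In single cells the members were compared after each cell was thinned to 500 UMIs, which left out 348 shallower cells of the 9196. Of the 8848 cells, 350 had a UMI of at least 3 different mitotic genes, 153 of them of exactly 3, and 416 others had exactly 2. The 350 are thus a range above a threshold. They were 10 of 996, 46 of 301, 10 of 283 and 14 of 369 cells in control replicates 1 to 4. In CYR61 replicates 1 to 4 they were 69 of 1896, 186 of 3598, 3 of 426 and 12 of 979 cells. Control replicate 2 had the highest share, 15.3% (exact 95% interval 11.4 to 19.9%), and the means were 5.90% ± 6.38 in control and 2.68% ± 2.09 in CYR61 libraries (SD, n = 4 each). Without control replicate 2 the control mean was 2.78% ± 1.54 (SD, n = 3), near that of CYR61. In unthinned cells 1752 of 9196 reached the threshold, with a median of 6914 UMIs against 801 in cells with no mitotic gene. They held 86.5% of all mitotic UMIs, a share that follows in part from their choice by these genes and from depth. Thinned to 500 or 1000 UMIs, the cells past the threshold held 39.8% and 59.7%.

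Mitotic genes were detected together in the same cells, with the cells of all libraries pooled. Top2a had a UMI in 44.1% of cells with at least 3 other mitotic genes and in 3.21% of cells with no other one. For Mki67 the shares were 44.7% and 3.43%. Nusap1 had the steepest ratio at this depth, at 15.0% against 0.380% (50 and 24 cells), or 39.4-fold. In unthinned cells Bub1 was steeper, at 28.2-fold against 24.3-fold for Nusap1. Among the 19 mitotic genes Smc4 had the lowest ratio, 4.70-fold, at 35.0% against 7.44%, so it was also found in many cells with no other mitotic RNA. Free RNA can give UMIs in any barcode. Barcodes with under 300 genes held mitotic RNA at 50.8% to 97.4% of the level of the cells. Such barcodes can be shallow cells as well as free RNA. The shares in cells with no other mitotic gene can thus include background, whose part was not measured. Cells with neutrophil granule genes had 3 or more mitotic genes in 9 of 116 (7.76%, median 1437.5 UMIs), against 341 of 8732 others (3.91%, median 1250 UMIs). Granule-stage precursors are known to divide, so they are no class that should lack these genes.

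The members of the other roles were also compared with mitotic RNA in the same cells, with no test of the differences. Cells of all libraries were pooled, and the libraries did not contribute alike. CYR61 replicate 2, an Xist library, gave 186 of the 350 cells and 2266 of the 6298 cells with no mitotic gene. CYR61 replicate 4, a Y library, gave 12 and 837. Differences between libraries can thus bear on these shares, and their part was not tested. Rrm2, the small subunit of ribonucleotide reductase, had a UMI in 9.14% of the 350 cells and in 0.476% of the 6298 cells with no mitotic gene. For Tk1 the shares were 4.00% and 0.175%, and for Ccna2 11.4% and 0.794%. The Tk1 shares rest on 14 and 11 cells, and its ratio moved with depth, from 22.9-fold to 7.29-fold when thinned to 1000 UMIs. For the 6 helicase genes the ratio of the shares ran from 2.14-fold (Mcm6, 4.86% against 2.27%) to 5.40-fold (Mcm7, 2.57% against 0.476%), close to 5.24-fold for Rrm1. Pcna was found in 14.0% against 9.16%, and Ccnd1 in 12.6% against 8.11%. Free RNA may bear on these shares, and its part in these ratios was not tested. Barcodes under 300 genes, which can also be shallow cells, held replication RNA at 54.0% to 122.6% of the level of the cells. They held cyclin RNA at 43.8% to 80.9% of it. Ccnd2 had a UMI in 7 of the 6298 cells, too few to compare, and before thinning in 2.80% of the 1752 cells and 0.422% of cells with no mitotic gene. Of the 350 cells, 42 (12.0%) also had at least 2 replication genes other than Pcna. Of the 153 cells with at least 2 such replication genes, 53 (34.6%) had no mitotic gene. Both shares moved with depth: thinned to 1000 UMIs they were 24.3% and 26.8%, and unthinned 51.8% and 8.77%.

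**Figure D4:**
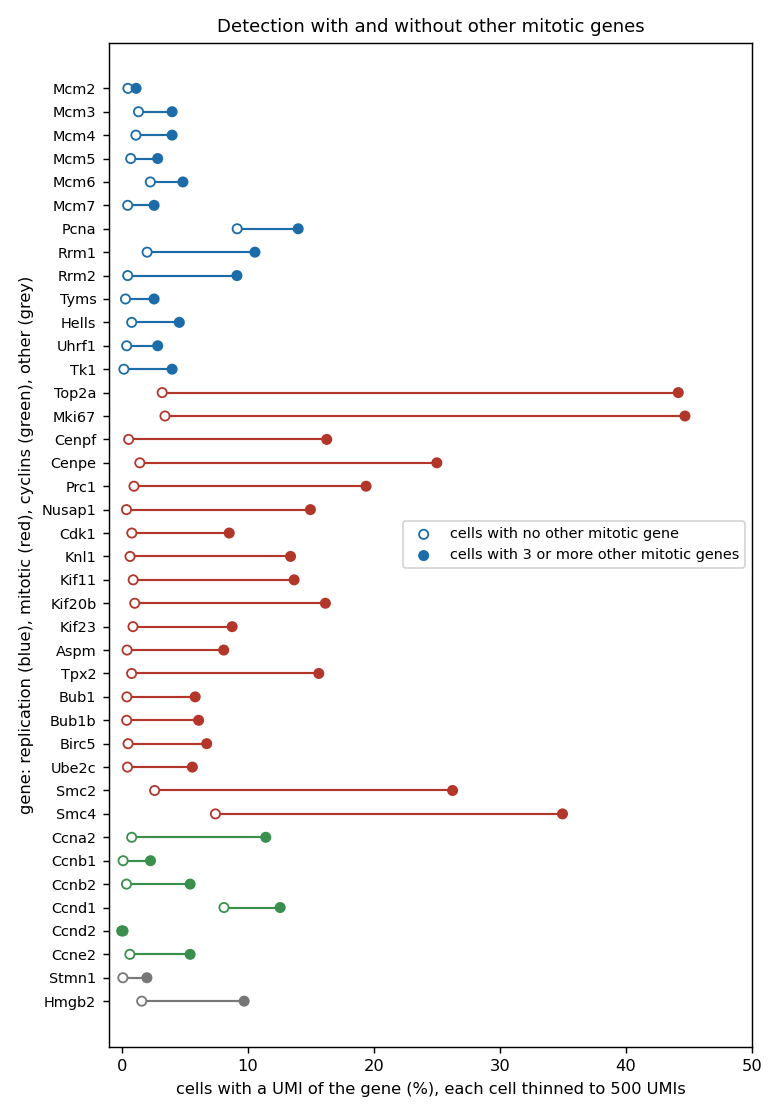
Share of cells with a UMI of each gene (horizontal axis, in percent, each cell thinned to 500 UMIs), for cells with no other mitotic gene (open points) and cells with at least 3 others (filled points). Cells of all libraries are pooled. Lines are long for Top2a and Mki67 (3.21% to 44.1% and 3.43% to 44.7%) and short for Mcm2, Pcna and Ccnd1; the Ccnd2 points lie near 0.

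The 350 cells carried RNA of all 6 macrophage genes, at shares below, level with or above those of cells with no mitotic gene. Csf1r, the M-CSF receptor, had a UMI in 16.0% of them and in 18.6% of cells with no mitotic gene, Adgre1, encoding F4/80, in 20.6% and 24.6%, and Lyz2, for lysozyme, in 94.6% and 98.0%. Cd68 had the largest gap, at 30.0% and 37.1%. Fcgr1 was level, at 14.0% in both, and Mrc1 was higher in the 350 cells, at 20.6% and 16.3%. The progenitor genes Kit, Cd34, Mpo, Elane, Prtn3 and Ctsg were too rare to compare after thinning (0 of the 350 cells and at most 0.143% of the 6298). Before thinning, Cd34 had a UMI in 1.14% of the 1752 cells and 0.0745% of cells with no mitotic gene, Elane in 0.856% and 0.397%, and Kit in 0.342% and 0%, at the unequal depths given above. Before thinning the 350 cells had a median of 2637 UMIs, against 1224 UMIs. The shares above pool the cells of all libraries, whose differences can bear on them.

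Other genes of the pathway, from lists fixed for this description with earlier results of these data known, were read from the same test. Among 8 CDK inhibitors and pocket proteins, 11 E2F, MYB and FOXM1 regulators, 16 kinases and other cyclins, 24 genes of origins and forks, 22 of spindle and cytokinesis, and 6 p53 targets, 0 passed the test of CYR61 over all 8 libraries. The smallest p was that of Cenpa, the centromeric histone, with 134, 144, 32.0 and 191 CPM in control and 50.7, 41.7, 55.7 and 59.4 CPM in CYR61 replicates. Control replicate 3 lay below every CYR61 library and the other controls above them (log2 fold change -1.25, SE 0.38, edgeR adjusted p = 0.301, and adjusted p = 0.0527 with the Xist and Y block). Within the Y libraries alone Cenpa passed and was lower with CYR61 (log2 fold change -2.78, edgeR adjusted p = 0.000789). It was the 1 called gene of these lists there, where 1.85% of all genes were called and 0.207% were called lower. Cdk4, the kinase partner of cyclin D1, had 78.3 to 113 CPM in control and 59.2 to 67.6 CPM in CYR61 libraries (-0.48, SE 0.19, edgeR adjusted p = 0.656). Its groups did not overlap, as in 5.12% of all tested genes. In the other lists the smallest p belonged to Rb1, E2f4, Pold1 and Ccng1, each with an edgeR adjusted p of at least 0.847.

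Under the Xist and Y term 7.72% of all genes were higher and 7.61% lower in Xist libraries, the shares to set beside the counts below. Of 8 CDK inhibitors and pocket proteins, 2 CDK inhibitor genes differed in the direction opposite to the members. Cdkn1b, for the CDK inhibitor p27, had 67.5 to 79.9 CPM in Xist and 147 to 178 CPM in Y libraries (log2 difference -1.19, SE 0.14, edgeR adjusted p = 0.000123). Cdkn1a, for the inhibitor p21, had 220 to 385 CPM in Xist and 588 to 645 CPM in Y libraries (-0.99, SE 0.14, edgeR adjusted p = 0.000491). Mdm2, which restrains p53, was also lower in Xist libraries (-0.48, SE 0.13, edgeR adjusted p = 0.0243). It was the 1 gene called in the list of 6 p53 targets, where 5 were below 0 and 4 had an unadjusted edgeR p under 0.05. Over all 10422 genes, 5270 were below 0 and 3108 had an unadjusted edgeR p under 0.05 for this term. The pocket protein gene Rbl1 was higher in Xist libraries (0.93, SE 0.24, edgeR adjusted p = 0.0189). Of the 11 regulators, E2f8 and Myc passed and were higher in Xist libraries (1.39, SE 0.32, and 2.58, SE 0.47). Of the 16 kinases and other cyclins, Cdk6, Ccnf, Plk4, Ttk and Chek1 were higher. Cdk6, the other partner of cyclin D1, had 191 to 281 CPM against 67.8 to 121 CPM. Of the genes of origins and forks 11 of 24 were higher, among them Lig1, for the ligase that joins newly made fragments (1.55, SE 0.27). Of the genes of spindle and cytokinesis 9 of 22 were higher, among them the condensin gene Ncapg (2.03, SE 0.37). In these 4 lists 0 genes were lower.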

How the data were processed

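Single-cell RNA was measured in 8 libraries. The authors deposited whole-number counts (UMIs) per gene and barcode, with the build mm10 per the submitters' processing notes. For the aligner, counter and cell call: not given in the sources used here. Groups and replicate numbers came from the labels, and the date stamps from the names of the tables. Counts were summed per library over the cells defined above and tested with edgeR 4.0.16 (R 4.3.3): TMM factors, filterByExpr, quasi-likelihood test, the agent as the sole term, Benjamini-Hochberg adjustment over all genes, threshold 0.05. DESeq2 1.42.0 was an alternative. No doublet caller was run. On simulated counts the fit was tested over 9888 genes, and it called 0.04122% of unchanged ones. CPM divide by the library's summed UMIs. Cells were thinned with a fixed seed, and intervals are exact binomial at 95%, covering counting error only. The members and lists were chosen with earlier results of these data known. Values in every library are given, per role, for the 3 members with the highest mean CPM and the 2 with the smallest p, and for called members. Of the other lists, called genes and the smallest p are named; Smc2, Mcm3, Uhrf1, Kif11 and other genes named for the Xist and Y term were chosen after their values were seen. Positions are those of GENCODE vM21 on mm10. Same-numbered control and CYR61 libraries share only a number. One gene of the pathway lists is not reported here by name.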

Additional observations from a re-analysis of the deposited data

Results flagged for a closer look

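In groups of 4 libraries, 6 of 90 sets of values held a library far from the other 3 (its gap to the nearest, divided by the whole range, was above Dixon's 95% critical value), and chance gives about 1 in 20. Control replicate 2 stood above the other controls for Top2a (294 CPM, next 99.7 CPM), Mki67 (394 CPM, next 136 CPM), Cdk1 (72.2 CPM, next 21.4 CPM) and Kif20b (133 CPM, next 30.9 CPM). It did so too for the summed mitotic genes (2402 CPM, next 885 CPM). CYR61 replicate 3 stood above the other CYR61 libraries for Hmgb2 (79.2 CPM, next 45.1 CPM), and it also had the highest summed granule genes (2777 CPM). In control replicate 2 barcodes assigned to other libraries had held 76.1% of the UMIs.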

How the results depend on the processing

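The 39 tested members gave 0 calls for CYR61 under every alternative run, except Y libraries alone (1 member). Over all genes, 117 were higher and 4 lower with CYR61. The higher count was 208 with no filter on low counts, 57 at the earlier date stamp alone, 199 with the Xist and Y block, 0 in all kept cells, and 74 to 116 when 1 library was left out. The lower count was 25 with DESeq2, 31 with no filter, 13 with the date stamp as a term, 29 at the earlier date stamp alone and 32 with the Xist and Y block. It was 0 in all kept cells, 0 with barcodes of 1 table, 239 in Xist libraries alone, 22 in Y libraries alone, and 0 to 11 with 1 library left out. The 27 members of the Xist and Y term became 17 with the date term and 17 with barcodes of 1 table. They were 19 to 35 with 1 library left out, and calls over all genes in those fits are not given here. The Xist and Y term and the fits of Xist or Y libraries alone were chosen after seeing the data. The log2 ratio of replication sums (-0.34) was -1.03 at the later date, and -0.59 to -0.14 with 1 library left out; the mitotic one ranged from -0.43 to 0.41.

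Fold changes that were not called changed sign as follows. At the earlier date Pcna was 0.0502, Top2a 0.42, Ccnd1 0.58, Ccne2 1.83, Ccnd2 0.0608 and Hmgb2 -0.11, and at the later date Rrm1 was -0.49, Mcm6 -0.84 and Ccna2 -1.18. With the date term Rrm1 was -0.0009 and Ccna2 -0.19, and with the Xist and Y block they were -0.0266 and -0.21. Rrm1 was -0.32 with barcodes of 1 table, -0.0127 without cells with granule genes and -0.36 with libraries thinned to 1 total. With no filter Top2a was 0.14 and Ccne2 0.17, and in all kept cells Top2a was 0.10. With 1 library left out the ranges were -0.23 to 0.60 for Rrm1, -0.14 to 0.79 for Mcm6, -1.14 to 0.13 for Tk1, -0.65 to 0.35 for Mki67 and -0.45 to 0.54 for Top2a. They were -0.79 to 0.28 for Cenpe, -0.46 to 0.30 for Ccnd1, -0.38 to 1.03 for Ccna2, -0.49 to 1.19 for Ccne2 and -0.14 to 0.31 for Hmgb2. The cause of these changes was not tested.

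With the replicate number as a block (replicate block), 106 genes were higher, 6 lower and 0 members called, and Ccna2 (-0.0285) and Ccne2 (0.36) changed sign. Same-numbered libraries correlated at -0.198, 0.324, -0.0874 and 0.314 in their deviations from the group means, so the numbers were not taken as pairs, and not every library correlated best with its own number. The share of cells with mitotic genes differed by -3.22 percentage points between the groups, and by -2.78 to -1.28 points under the planned depths and thresholds. It was 0.36 points unthinned with at least 2 mitotic genes, and -4.85 to -0.09 points with 1 library left out (-0.09 without control replicate 2), both added after seeing the data. Libraries of under 400 cells (3 of 4 controls) limit the precision, and members under 10 CPM rest on few counts there.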
